A study of Mus musculus with 9 samples.

Results

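The 10 genes described here encode the main glucose transporter of proliferating cells, Slc2a1, and 9 enzymes that carry glucose to lactate, Hk1, Hk2, Pfkl, Aldoa, Gapdh, Pgk1, Eno1, Pkm and Ldha. They were selected by their symbols among protein-coding genes, and no measured value enters that rule, although it was written with earlier results of these data known. They matched 11 of the 56748 entries of the deposited count table, because Aldoa is listed under a pair of identifiers, and all 11 were among the 14510 entries that passed the filter on low counts. They were measured by RNA-Seq in Hepa1-6, an established mouse hepatoma cell line, in 3 control libraries, 3 libraries of cells given 37 µg/mL lefamulin and 3 libraries of cells given 37 µg/mL tiamulin, both for 2 days. All 3 groups were grown in DMEM with fetal bovine serum and penicillin-streptomycin. The sample labels describe the control as unmanipulated, whereas the paper calls it a vehicle control. Lefamulin and tiamulin are pleuromutilin antibiotics, which bind the bacterial ribosome. They share a tricyclic core and differ in the side chain attached to it. Their doses matched by mass per volume, not necessarily by moles. The study is of 1 cell line, and the labels do not say whether the 3 libraries of a group came from separate cultures, so p values here measure the spread between these libraries only.

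Glycolysis splits glucose into pyruvate and yields ATP without oxygen. Glucose enters through a transporter, is trapped by hexokinase as glucose 6-phosphate, is committed to the pathway by phosphofructokinase, and ends as pyruvate, which lactate dehydrogenase reduces to lactate while regenerating NAD+. Many tumours, hepatomas included, express the pathway strongly even in oxygen, and the transcription factors HIF-1 and Myc are known to bind and activate many of its genes.

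Several transcripts of the pathway were lower under both drugs, and the member that fell most was Pfkl, the liver isoform of phosphofructokinase. Pfkl, Eno1, Pkm and Ldha were lower under lefamulin than in controls, and the same 4 genes plus Slc2a1 and Hk2 were lower under tiamulin. No member was higher. Aldoa, Pgk1 and Hk1 did not pass the test under either drug, and Gapdh varied too much between libraries of a group for a difference to be read. The largest fitted fall was of Pfkl, to 60.0% of control under lefamulin and 62.3% under tiamulin, and the other called members lay between 72.0% and 87.2% of control. None reached an absolute log2(fold change) above 1, the threshold the authors set for a differentially expressed gene. Both drugs were set against the same 3 controls, so these are not independent observations of a fall.

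To read the member counts, the share of all 14510 tested entries passing the same rule is needed. By the edgeR quasi-likelihood (QL) fit at a Benjamini-Hochberg adjusted p below 0.05, 4 of 11 member entries were lower under lefamulin, against 6.00% of all entries, and 0 were higher, against 7.09%. Under tiamulin 6 of 11 were lower, against 7.34% of all, and 0 were higher, against 9.08%. The entries that also passed the fold threshold made up 1.51% of all under lefamulin and 1.78% under tiamulin. The median log2(fold change) of the 11 entries was −0.20 under lefamulin and −0.27 under tiamulin, beside −0.0018 and 0.0034 over all tested entries. In 8 entries every lefamulin library lay below every control in CPM (counts scaled to the TMM-normalized library total), against 18.8% of all entries, and in 1, Hk2, every one lay above, against 18.9%. For tiamulin these counts were 6, against 15.2%, and 0, against 17.1%. The members were chosen with results of these data known, so the counts describe the genes and test nothing about the pathway as a whole.

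Total counts per library were between 15568887 and 18008105. Tiamulin 2 stood apart from the other libraries of its group: its counts differed from those of tiamulin 1 and tiamulin 3 with a chi-square per degree of freedom of 16.3 and 18.6, whereas the other pairs within a group gave 2.79 to 6.91. Over 9173 genes, which cannot count as replicates, its deviation from its group rose with GC content (Spearman's rho 0.72). The deviations of control 1, control 2, tiamulin 1 and tiamulin 3 followed GC content too (rho 0.54, −0.52, −0.58 and −0.61), and rho lay between −0.17 and 0.20 in the other libraries. Deviations within a group are not independent of each other. The member entries other than the second of Aldoa had a GC content of 49.7% to 57.7%, above the median of 49.2% over tested genes. Without tiamulin 2, 7 member entries were lower under lefamulin and 1 was higher, and 7 were lower under tiamulin, by the same edgeR test, while the entries called in either direction rose from 1900 to 3708 under lefamulin and from 2383 to 3433 under tiamulin. The part of GC content in the levels of tiamulin 2 was not tested beyond the offsets described with the alternatives. The hepatocyte genes Alb, Afp, Trf and Hnf4a each had at least 4905 counts in every library, whereas Ttr, Apoa1 and Serpina1a had at most 6. The 9 hepatocyte markers summed to between 2530 and 2741 CPM in controls, between 2453 and 2578 in lefamulin libraries and between 1964 and 2105 in tiamulin libraries. The lymphocyte marker Cd3e and the macrophage marker Adgre1 had no count in any library. The 7 leukocyte markers summed to between 8.38 and 9.25 CPM in controls, 11.7 and 18.1 with lefamulin and 15.4 and 21.2 with tiamulin, and most of this sum was Cd68. The 4 endothelial markers summed to between 1.27 and 1.73 CPM in controls and between 2.57 and 4.50 in treated libraries. The fibroblast list summed to between 1508 and 1594 CPM in controls, 1148 and 1200 with lefamulin and 1063 and 1156 with tiamulin, nearly all of it Dcn, while Col1a1, Col1a2 and Col3a1 had at most 12 counts. The part of these marker differences in the results below was not tested. In bulk RNA, fewer cells of a kind and less RNA per cell cannot be told apart.

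The promoters of the 4 members that were lower under both drugs are shown because HIF-1 and Myc bind known motifs. HIF-1 binds ACGTG, a form of the core of the hypoxia response element, and Myc binds the E-box CACGTG, which contains ACGTG. The other form of the core, GCGTG, was not searched for or marked. It occurs in the sequences of Pfkl, Eno1 and Ldha below. They are RefSeq sequences of GRCm38.p6, from 250 bases before to 50 after the transcription start, on the gene's strand. Where several starts are listed, the one farthest upstream is shown. Capitals mark ACGTG on either strand, which reads CACGT when it lies on the other strand.
Pfkl: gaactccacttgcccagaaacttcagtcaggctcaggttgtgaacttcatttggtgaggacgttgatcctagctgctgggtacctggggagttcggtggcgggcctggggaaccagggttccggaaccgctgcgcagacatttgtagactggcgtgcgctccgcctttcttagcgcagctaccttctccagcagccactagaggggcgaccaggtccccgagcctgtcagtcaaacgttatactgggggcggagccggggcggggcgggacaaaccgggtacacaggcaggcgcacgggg
Eno1: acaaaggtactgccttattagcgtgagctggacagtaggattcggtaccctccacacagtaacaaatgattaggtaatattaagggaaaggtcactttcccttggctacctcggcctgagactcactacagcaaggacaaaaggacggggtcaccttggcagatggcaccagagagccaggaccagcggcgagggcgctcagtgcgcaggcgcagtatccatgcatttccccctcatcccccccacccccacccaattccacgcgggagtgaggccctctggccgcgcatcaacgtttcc
Pkm: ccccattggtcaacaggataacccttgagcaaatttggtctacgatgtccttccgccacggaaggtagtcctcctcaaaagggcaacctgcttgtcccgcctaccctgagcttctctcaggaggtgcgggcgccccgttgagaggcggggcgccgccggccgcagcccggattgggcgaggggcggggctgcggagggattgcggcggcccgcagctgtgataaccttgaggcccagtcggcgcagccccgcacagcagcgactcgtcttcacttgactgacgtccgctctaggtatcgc
Ldha: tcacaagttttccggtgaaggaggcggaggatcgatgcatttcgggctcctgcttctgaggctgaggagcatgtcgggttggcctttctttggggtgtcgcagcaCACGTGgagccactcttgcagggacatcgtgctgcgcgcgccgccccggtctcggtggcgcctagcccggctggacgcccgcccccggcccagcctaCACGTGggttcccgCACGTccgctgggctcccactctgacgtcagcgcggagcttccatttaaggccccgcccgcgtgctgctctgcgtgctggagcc

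These sequences are the promoters of Pfkl at chr10:78009758-78010057, minus strand, Eno1 at chr4:150236458-150236757, plus strand, Pkm at chr9:59656326-59656625, plus strand, and Ldha at chr7:46845554-46845853, plus strand. Only Ldha holds ACGTG here, at 3 places, of which 2 are complete E-boxes. Among all 10 members, the same window held ACGTG in 5 (Slc2a1, Hk2, Gapdh, Pgk1 and Ldha), against 19.6% of 27025 gene promoters of the same length, and CACGTG in 1, against 7.24%. At the other starts listed for Hk1, Aldoa and Pkm, 1, 2 and 1 windows also held ACGTG, and none of those of Eno1 and Ldha did. A single start is listed for Pfkl. The 5 genes with ACGTG in this window thus include Ldha, which was lower under both drugs, and Pgk1, which passed the test under neither. A match only says that these letters occur.

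**Figure D1:**
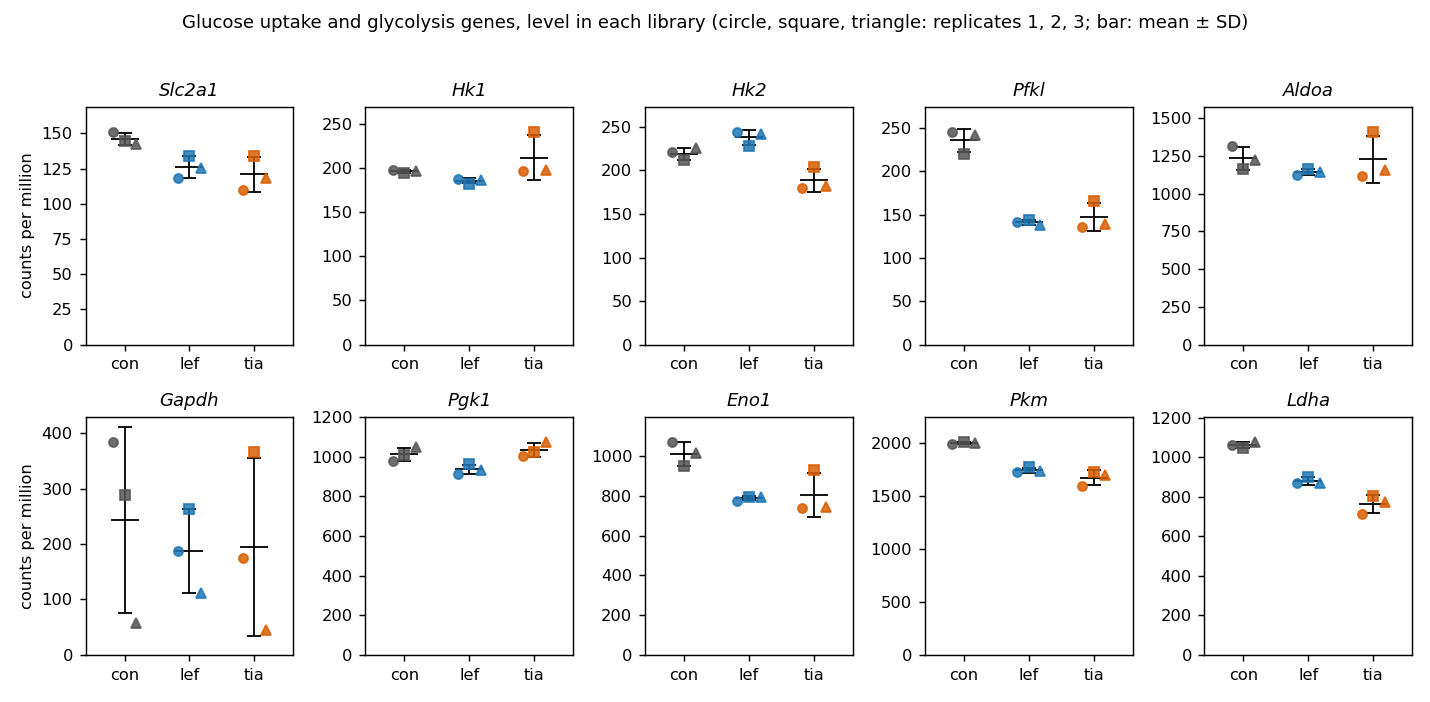
Level of each of the 10 genes in CPM (y axis, from 0) in the 3 control (con), 3 lefamulin (lef) and 3 tiamulin (tia) libraries (x axis). Symbols mark replicate numbers and bars the mean ± SD of 3 libraries. Pfkl fell from between 220 and 245 in controls to between 138 and 144 with lefamulin and between 136 and 165 with tiamulin, and Gapdh spreads from 58.5 to 384 in controls, from 112 to 263 with lefamulin and from 44.9 to 365 with tiamulin.

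Glucose uptake was examined first. Slc2a1, which encodes the glucose transporter GLUT1, lies on chromosome 4 (118965908 to 118995180, plus strand, in the authors' files, whose positions here and for the other members do not match those of GRCm38). Its level was 151, 145 and 143 CPM in controls 1, 2 and 3, 118, 134 and 125 under lefamulin, and 110, 134 and 118 under tiamulin. All treated libraries lay below all controls, and the drug groups overlapped each other. The fitted log2 ratio to control was −0.27 ± 0.074 (SE) for tiamulin, which passed (adjusted p = 0.020, edgeR QL), and −0.21 ± 0.074 for lefamulin, which did not (adjusted p = 0.071). The tiamulin call held in 11 of 19 alternatives and was lost on leaving out control 1, 2 or 3 or tiamulin 1 or 3 (adjusted p between 0.056 and 0.091). The lefamulin value passed in 5 of 19, among them the fit without tiamulin 2 (adjusted p = 0.0020). With tiamulin 2 kept, it passed once GC content and gene length were offset (adjusted p = 0.0021). It also passed in a fit of the lefamulin and control libraries alone (adjusted p = 0.0038). Slc2a1 made up 91.5% ± 1.00 (SD, n = 3) of the summed FPKM (counts per gene length and library total) of the SLC2 family in controls. Of the other 12 glucose transporters listed, 4 had enough counts to be tested, and none passed in either direction. The liver transporter Slc2a2 had between 0 and 10 counts.

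Hexokinases phosphorylate the incoming glucose, and Hk2 and Hk1 are the forms among the members. Hk2, the form raised in many tumours (chromosome 6, 82702006 to 82751435, minus strand), had 221, 212 and 225 CPM in controls, 244, 228 and 242 with lefamulin and 180, 204 and 182 with tiamulin. Every tiamulin library was below every control, and every lefamulin library was above. The log2 ratio to control of Hk2 was −0.22 ± 0.061 (SE) for tiamulin, a fall that passed (adjusted p = 0.025), and 0.12 ± 0.061 for lefamulin, which did not pass (adjusted p = 0.22). The tiamulin call was lost without control 1 or 3 or tiamulin 1 or 3 (adjusted p between 0.076 and 0.11), and the lefamulin value passed without tiamulin 2 (adjusted p = 0.037). Hk1, the form of most tissues (chromosome 10, 62104634 to 62215687, minus strand), had 196 ± 1.78 CPM in controls, 186 ± 2.95 with lefamulin and 211 ± 25.3 with tiamulin (mean ± SD, n = 3). Its log2 ratio to control was −0.08 and 0.11, and neither passed (adjusted p = 0.51 and 0.35). Without tiamulin 2 the tiamulin value of Hk1 was 0.0030. FPKM divides by the deposited gene length, 8532 bases for Hk1 and 5969 for Hk2. On that scale Hk2 exceeded Hk1 in each library. In CPM, means of Hk2 and Hk1 were 219 and 196 in controls, 238 and 186 with lefamulin and 189 and 211 with tiamulin. Whether the lengths match the expressed transcripts was not tested. The FPKM ratio of Hk2 to Hk1 was 1.60, 1.56 and 1.64 in controls, 1.86, 1.79 and 1.85 with lefamulin and 1.31, 1.21 and 1.32 with tiamulin. The 3 groups did not overlap in this ratio, in which the depth of a library cancels. An exact permutation test of 3 against 3 libraries cannot give a two-sided p below 0.1. Hk3 had at most 1 count in any library. Adpgk, which phosphorylates glucose with ADP, was higher under lefamulin (log2(fold change) 0.26, adjusted p = 0.041) and did not pass under tiamulin (0.15, adjusted p = 0.22). The Adpgk call held in 9 of 19 alternatives and, of the libraries left out in turn, only without tiamulin 2 or 3.

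Pfkl encodes the liver isoform of phosphofructokinase, which makes fructose 1,6-bisphosphate and is a main control point of the pathway (chromosome 10, 77822781 to 77845917, minus strand). It had 245, 220 and 241 CPM in controls, 141, 144 and 138 with lefamulin and 136, 165 and 139 with tiamulin. The lowest control was well above the highest treated library, and the drug groups overlapped. Relative to control, Pfkl fell by 0.74 on the log2 scale with lefamulin (SE 0.074, adjusted p = 1.59e-05) and by 0.68 with tiamulin (SE 0.074, adjusted p = 2.33e-05). Pfkl was the largest part of the family's summed FPKM in each library, which also holds the muscle form Pfkm and the platelet form Pfkp. Its share was 67.8%, 65.3% and 66.0% in controls, 52.8%, 54.4% and 53.8% with lefamulin and 54.6%, 54.5% and 55.4% with tiamulin, so that every treated library was below every control. Of the 5 genes that set the level of fructose 2,6-bisphosphate, which activates phosphofructokinase, only Tigar passed, where 7.09% of all entries were higher under lefamulin. Tigar, a phosphatase that removes this activator, was higher under lefamulin (log2(fold change) 0.42, adjusted p = 0.0092) and had 0.23 under tiamulin (adjusted p = 0.12). The Tigar call was lost without control 3 or lefamulin 2 (adjusted p = 0.057 and 0.051).

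**Figure D2:**
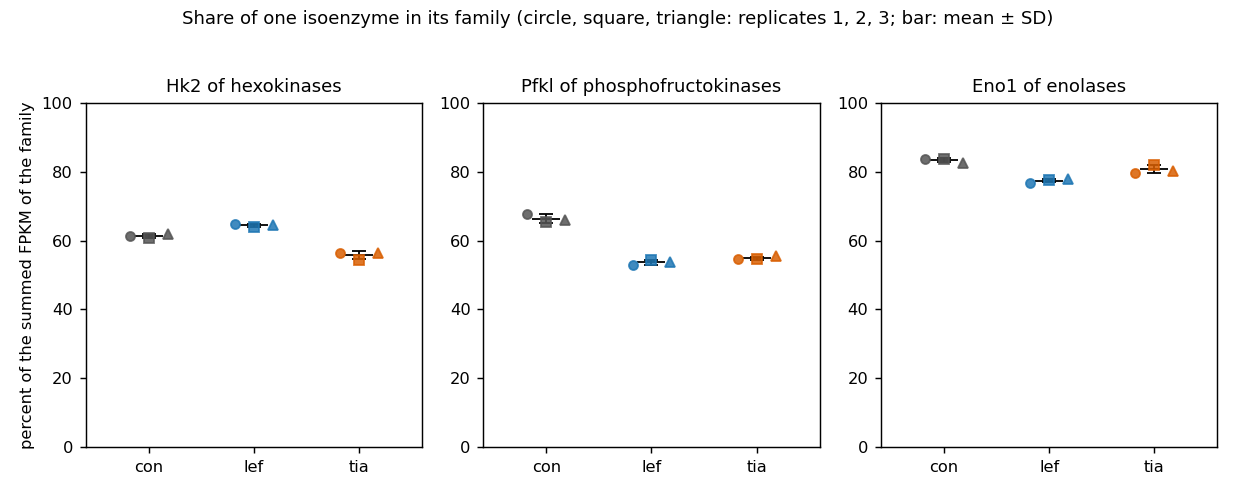
Share of Hk2, Pfkl and Eno1 in the summed FPKM of its family in percent (y axis, 0 to 100) for the 3 control (con), lefamulin (lef) and tiamulin (tia) libraries (x axis), with bars for the mean ± SD of 3 libraries. The mean share of Pfkl was 66.4% in controls, 53.7% under lefamulin and 54.8% under tiamulin, and that of Hk2 was 61.2%, 64.4% and 55.8%.

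Aldoa, which cleaves fructose 1,6-bisphosphate (chromosome 7, 126394406 to 126399923, minus strand), was among the most abundant members and did not pass the test. It had 1315, 1166 and 1223 CPM in controls, 1122, 1163 and 1142 with lefamulin and 1116, 1409 and 1155 with tiamulin. Tiamulin 2 had the highest value of all 9 libraries, and the other tiamulin libraries were below every control. The log2 ratio to control was −0.11 for lefamulin (adjusted p = 0.38) and −0.0095 for tiamulin (adjusted p = 0.95). Without tiamulin 2 these were −0.11 (adjusted p = 0.027) and −0.12 (adjusted p = 0.037). The lefamulin value also passed in a fit of the lefamulin and control libraries alone (adjusted p = 0.044) and, with tiamulin 2 kept, once GC content and gene length were offset (−0.095, adjusted p = 0.035). The second Aldoa entry, which lies next to the first, had only 12 to 26 counts and passed in no comparison.

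Gapdh, glyceraldehyde 3-phosphate dehydrogenase (chromosome 6, 125138678 to 125143430, minus strand), is widely used as a reference gene and was the least reproducible member. Its counts were 6644, 4966 and 1047 in controls 1, 2 and 3, 2933, 4359 and 1834 with lefamulin and 2871, 5848 and 763 with tiamulin. The library numbered 3 was lowest in every group, and the highest library exceeded the lowest 6.56-fold in controls, 2.34-fold under lefamulin and 8.13-fold under tiamulin on the CPM scale. Among the other members the largest such ratio, of Aldoa under tiamulin, was 1.26, the second Aldoa entry apart. Ranked by the smallest of the 3 within-group ratios, Gapdh was number 3 of 9201 genes above 10 CPM, among pseudogenes and the abundant transcripts mt-Atp6 and Rpl7a. Genes at the top of this ranking were named after their values were seen. The log2 ratio to control was −0.38 and −0.32, with 95% intervals of −2.61 to 1.85 and −2.55 to 1.90, so a difference was not detectable. Mouse Gapdh has many processed copies. The 3 copies listed by name held only 7 to 15 counts in sum, and whether reads were lost to others was not tested. Iffo1, which overlaps Gapdh on the other strand in the authors' positions, had 295 to 451 counts.

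Pgk1, which makes the first ATP of the pathway (chromosome X, 105230706 to 105247305, plus strand), had 978, 1009 and 1047 CPM in controls, 915, 962 and 933 with lefamulin and 1003, 1026 and 1073 with tiamulin. All lefamulin libraries were below all controls, and the tiamulin libraries overlapped them. Neither difference passed, with a log2(fold change) of −0.11 (adjusted p = 0.16) and 0.03 (adjusted p = 0.73). With 95% intervals of −0.22 to −0.0046 and −0.07 to 0.14, a fall the size of that of Pfkl lay outside both. Without tiamulin 2 the lefamulin value passed (−0.11, adjusted p = 0.023).

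Eno1, the main enolase (chromosome 4, 150321178 to 150333336, plus strand), had 1071, 949 and 1016 CPM in controls, 777, 795 and 793 with lefamulin and 740, 933 and 744 with tiamulin. Each control was above each treated library, with tiamulin 2 just below control 2. Eno1 fell by 0.36 on the log2 scale with lefamulin (SE 0.078, adjusted p = 0.0077, edgeR QL) and by 0.33 with tiamulin (SE 0.078, adjusted p = 0.010). The call under tiamulin was lost without control 1 (−0.29, adjusted p = 0.052). Of the enolase family's summed FPKM, Eno1 held 83.4% ± 0.622 in controls, 77.4% ± 0.476 under lefamulin and 80.7% ± 1.19 under tiamulin (SD, n = 3). A listed Eno1 copy had 169 to 312 counts.

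Pkm encodes the muscle-type pyruvate kinases, which make pyruvate and ATP (chromosome 9, 59563651 to 59586658, plus strand). The gene gives the PKM1 and PKM2 isoforms, which gene counts do not separate. It was the member with the most counts, 1989, 2004 and 2000 CPM in controls, 1722, 1768 and 1737 with lefamulin and 1588, 1728 and 1695 with tiamulin. All treated libraries were below all controls, and the highest control was 1.01 times the lowest. Pkm fell by 0.20 on the log2 scale with lefamulin (SE 0.047, adjusted p = 0.012) and by 0.26 with tiamulin (SE 0.047, adjusted p = 0.0016). Once GC content and gene length were offset, the lefamulin value was −0.16 and no longer passed (adjusted p = 0.26), as when control 3 or any 1 lefamulin library was left out (adjusted p between 0.051 and 0.065). Gm49759, an entry that overlaps Pkm on the same strand, had 1097 to 1638 counts, and how reads were divided between them is not given in the sources used here.

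Ldha, which turns pyruvate into lactate (chromosome 7, 46490899 to 46505051, plus strand), had 1062, 1048 and 1075 CPM in controls, 869, 901 and 870 with lefamulin and 715, 805 and 775 with tiamulin. The 3 groups did not overlap, in the order control, lefamulin, tiamulin. Ldha fell by 0.27 on the log2 scale with lefamulin (SE 0.052, adjusted p = 0.0033) and by 0.47 with tiamulin (SE 0.052, adjusted p = 2.79e-05). Ldhb had at most 2 counts in any library, so that Ldha made up nearly all lactate dehydrogenase transcript.

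**Figure D3:**
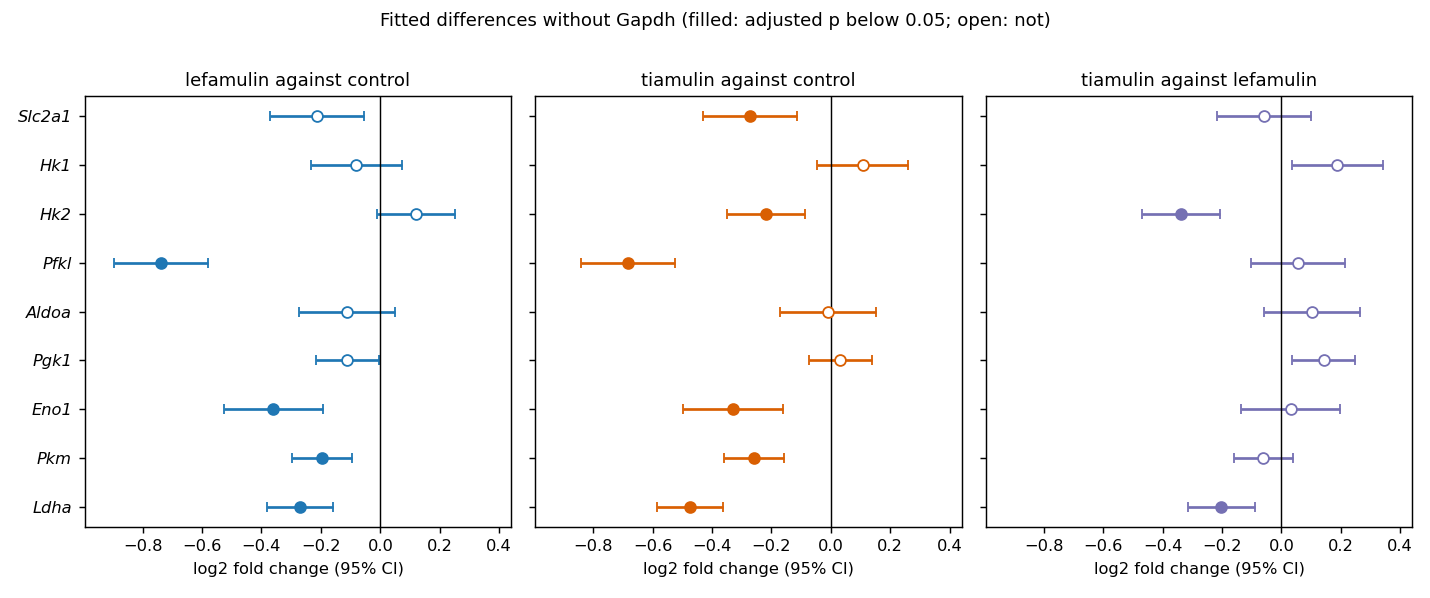
Fitted log2(fold change) with its 95% interval (x axis) of 9 members (y axis) for lefamulin against control, tiamulin against control and tiamulin against lefamulin. Gapdh is left out because its intervals are wider than the axis. Filled points passed an adjusted p below 0.05. Pfkl lies lowest under both drugs, at −0.74 and −0.68, and only Hk2 and Ldha are filled in the direct comparison of the drugs.

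Levels between genes were compared per length, as FPKM. The order depends on the deposited gene lengths, which range from 2244 bases for Pgk1 to 8532 for Hk1. Pgk1 and Eno1, with 2244 and 5379 bases, both had a mean of 1012 CPM in controls. Whether these lengths match the expressed transcripts was not tested. In controls the order was Pgk1 (449 ± 15.0), Aldoa (422 ± 25.7), Pkm (397 ± 1.59), Ldha (319 ± 3.79), Eno1 (187 ± 11.2), Gapdh (58.7 ± 40.3), Slc2a1 (41.5 ± 1.26), Hk2 (36.5 ± 1.13), Pfkl (35.1 ± 1.98) and Hk1 (22.9 ± 0.198), as mean ± SD of 3 libraries. Aldoa overlapped both Pgk1 and Pkm, Gapdh overlapped Slc2a1, and Hk2 overlapped Pfkl, and the other neighbours did not overlap. The transporter and the early enzymes Hk1, Hk2 and Pfkl were thus the least abundant and the enzymes of the later steps, apart from Gapdh, the most abundant. Under both drugs Pfkl came last on the FPKM scale and overlapped Hk1. It lay between 20.6 and 21.4 FPKM with lefamulin and between 20.2 and 24.8 with tiamulin. The members other than Gapdh summed to 7116 ± 149 CPM in controls, 6182 ± 91.4 with lefamulin and 6170 ± 437 with tiamulin (SD, n = 3), and this sum is set mostly by Pkm, Aldoa, Ldha, Pgk1 and Eno1. The genes whose level followed the mean standardized level of the members most closely, over the 9 libraries, were Etv6 (Pearson's r = 0.99), Thsd4 (0.97), Plekha6 (0.97), Ganab (0.97) and Loxl4 (0.97), out of 9191 compared. The mean standardized level was between 0.55 and 0.90 in controls and between −0.88 and −0.19 in the treated libraries other than tiamulin 2, which had 0.53 and so lay beside the controls. The correlations describe these libraries and are given without a test.

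The drugs were then compared directly, as a single pair of analogues at the same mass dose and time. Tiamulin gave lower levels than lefamulin for Hk2, with a difference in log2 level of −0.34 (95% interval −0.47 to −0.21, adjusted p = 0.0067), and for Ldha, with −0.20 (−0.31 to −0.09, adjusted p = 0.041), by the edgeR quasi-likelihood (QL) fit over all 14510 entries. These 2 of 11 member entries compare with 2.05% of all entries lower under tiamulin. None was higher, against 2.85% of all, and none passed the fold threshold, against 0.227%. The difference for Hk2 was lost in 1 of 19 alternatives, without lefamulin 3 (adjusted p = 0.051), whereas that for Ldha passed in only 7 of them and, of the 9 libraries left out in turn, only without tiamulin 2 (adjusted p = 0.00018). In libraries that did not overlap, 2 members were lower (Hk2 and Ldha), against 12.9% of all entries, and 2 were higher under tiamulin (Hk1 and Pgk1), against 13.6%. Hk1 and Pgk1 did not pass the test (0.19, adjusted p = 0.15, and 0.14, adjusted p = 0.11), and the value of Hk1 was 0.085 without tiamulin 2. Pgk1 passed without tiamulin 2 (0.15, adjusted p = 0.019) and once GC content and gene length were offset (0.18, adjusted p = 0.00085). For the other members a difference was not shown, which does not show that the drugs act alike. The 95% interval was −0.10 to 0.21 for Pfkl, −0.14 to 0.20 for Eno1, −0.16 to 0.04 for Pkm, −0.22 to 0.10 for Slc2a1, −0.06 to 0.27 for Aldoa and −2.18 to 2.29 for Gapdh.

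The remaining glycolytic enzymes mostly did not pass the test, and the exceptions fell. Of 14 tested, 2 were lower with lefamulin and 3 with tiamulin, and none was higher. Of all tested entries 6.00% were lower and 7.09% higher with lefamulin, and 7.34% and 9.08% with tiamulin, so that a single call in a list of this size is near the share over all entries. Tpi1, triosephosphate isomerase, had between 906 and 956 CPM in controls, between 731 and 744 with lefamulin and between 670 and 724 with tiamulin. It fell by 0.35 and 0.42 on the log2 scale (adjusted p = 0.00030 and 4.37e-05). Bpgm, which makes 2,3-bisphosphoglycerate, fell by 0.32 and 0.49 on the log2 scale (adjusted p = 0.043 and 0.0030), and the mutase Pgam1 fell under tiamulin (−0.33, adjusted p = 0.017) but missed the threshold under lefamulin (−0.27, adjusted p = 0.053). The Bpgm call under lefamulin held in 10 of 19 alternatives and, of the libraries left out in turn, only without lefamulin 1 or tiamulin 2 or 3. The Pgam1 call was lost without control 1 or 3 or tiamulin 1 or 3 (adjusted p between 0.065 and 0.080), and its lefamulin value passed without any 1 tiamulin library. The median of the 14 was −0.0018 with lefamulin and 0.022 with tiamulin.

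Few genes that handle the products of glycolysis passed the test, and their counts stand beside 6.00% lower and 7.09% higher of all entries with lefamulin and 7.34% and 9.08% with tiamulin. Of 6 lactate and pyruvate transport genes tested, only Slc16a1, the lactate transporter MCT1, passed. It had between 265 and 269 CPM in controls, 294 and 303 with lefamulin and 237 and 252 with tiamulin, so the groups did not overlap. It rose under lefamulin (log2(fold change) 0.16, adjusted p = 0.048) and had −0.13 under tiamulin (adjusted p = 0.10). The lefamulin call of Slc16a1 held in 7 of 19 alternatives and, of the libraries left out in turn, only without tiamulin 2. Of 11 pyruvate dehydrogenase genes, Pdk1, the kinase that switches the complex off, was lower under lefamulin and tiamulin (−0.42 and −0.41, adjusted p = 0.00079 and 0.00071), and Dlat, a subunit of the complex, was higher under tiamulin (0.19, adjusted p = 0.038) and had 0.10 under lefamulin (adjusted p = 0.29). The Dlat call held in 7 of 19 alternatives and, among the fits lacking 1 library, only without lefamulin 1 or tiamulin 2. Of 4 gluconeogenesis genes tested, Pck2, the mitochondrial form of phosphoenolpyruvate carboxykinase and a known target of the transcription factor ATF4, was higher under both drugs (0.37 and 0.92, adjusted p = 0.0094 and 4.22e-06), with the lefamulin call lost without lefamulin 1 (adjusted p = 0.058). Pck1, G6pc and Fbp1, the gluconeogenic genes of liver, had at most 2 counts.

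Pathways that branch from glycolysis were called in part, beside 6.00% lower and 7.09% higher of all entries with lefamulin and 7.34% and 9.08% with tiamulin. In glycogen and hexosamine metabolism 3 of 14 genes were lower under each drug and 1 was higher under tiamulin, the last a smaller share than over all entries. Gfpt2, which starts the hexosamine pathway, fell by 0.59 and 0.63 on the log2 scale (adjusted p = 0.00073 and 0.00031), Ugp2, which makes UDP-glucose, fell by 0.22 and 0.44 (adjusted p = 0.029 and 0.00020), and Pgm1, phosphoglucomutase, fell by 0.32 and 0.26 (adjusted p = 0.0089 and 0.023). Pygb, a glycogen phosphorylase, was higher under tiamulin (0.31, adjusted p = 0.011) and had 0.07 under lefamulin. Among fits lacking 1 library, Ugp2 under lefamulin was lost without control 2 or 3 or any 1 lefamulin library, Pgm1 without control 3 or lefamulin 2 or 3 and, under tiamulin, without control 3 or tiamulin 1 or 3, and Pygb without control 2 (adjusted p between 0.051 and 0.15 over all of these). Of 8 pentose phosphate genes 1 passed, which is near the share over all entries. H6pd, the form of the first enzyme in the endoplasmic reticulum, was lower under lefamulin (−0.34, adjusted p = 0.032), a call held in 11 of 19 alternatives and lost without control 1 or 3 or any 1 lefamulin library. Under tiamulin H6pd had −0.26 (adjusted p = 0.085) and passed without tiamulin 2 (−0.39, adjusted p = 0.00028), and a difference between the drugs was not shown (adjusted p = 0.67). Of 9 genes of the shuttles that carry NADH electrons into mitochondria, 2 were higher under lefamulin, and 3 were higher and 1 lower under tiamulin. Got1 was higher under both (0.31 and 0.26), as was Gpd2 (0.22 and 0.20), while Slc25a12 was higher (0.40, adjusted p = 0.036) and Slc25a13 lower (−0.30, adjusted p = 0.0087) under tiamulin. These 2 carriers are the aspartate-glutamate exchangers of the shuttle, and under lefamulin they had 0.34 and −0.21, which did not pass, although both passed without tiamulin 2 (adjusted p = 0.014 and 0.011). Under tiamulin the call for Slc25a12 held in 9 of 19 alternatives and was lost without control 1 or 2, any 1 lefamulin library or tiamulin 2 (0.26 without the latter, adjusted p = 0.094). The call for Gpd2 held in 13 of 19 alternatives under lefamulin, lost without control 1 or 3 or lefamulin 1 or 2, and in 7 of 19 under tiamulin, where it held only without lefamulin 3 or tiamulin 2 among the libraries left out. Got1 was lost without control 3 or lefamulin 1 under lefamulin and without control 2 or 3 under tiamulin (adjusted p between 0.065 and 0.10).

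**Figure D4:**
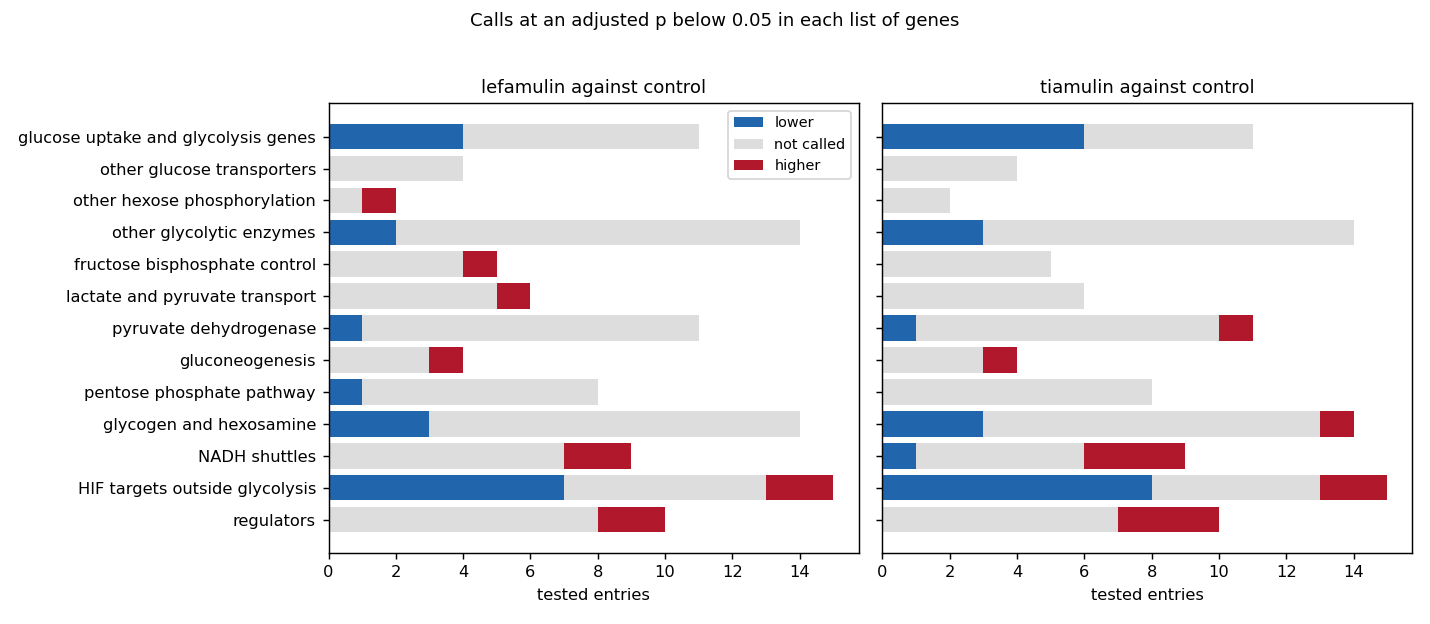
Number of tested entries (x axis) called lower, not called or called higher at an adjusted p below 0.05 in each list of genes (y axis), for lefamulin and tiamulin against control. The glucose uptake and glycolysis genes, with 4 and 6 of 11 lower, and the HIF targets outside glycolysis, with 7 and 8 of 15 lower, show the most calls.

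Known HIF-1 target genes outside glycolysis were followed because many glycolysis genes are HIF-1 targets too. Of 15 tested, 7 were lower and 2 higher under lefamulin, and 8 were lower and 2 higher under tiamulin, with a median log2(fold change) of −0.22 and −0.24. Of all entries 6.00% were lower and 7.09% higher under lefamulin, and 7.34% and 9.08% under tiamulin. Below 0 lay 9 of the 15 genes under lefamulin and 11 under tiamulin. The lower genes included Ak4, an adenylate kinase of mitochondria (−0.22 and −0.45, adjusted p = 0.046 and 0.00045), Egln1, the oxygen sensor that marks HIF for degradation (−0.40 and −0.40, adjusted p = 0.0018 and 0.0011), and P4ha1, a collagen prolyl hydroxylase (−0.33 and −0.34, adjusted p = 0.0023 and 0.0012). The Ak4 call under lefamulin held in 10 of 19 alternatives and, of the libraries left out in turn, only without tiamulin 2 or 3. Ndrg1, a stress-responsive gene, had between 184 and 198 CPM in controls, 276 and 294 with lefamulin and 306 and 317 with tiamulin, and rose by 0.60 and 0.72 on the log2 scale (adjusted p = 5.38e-06 and 9.01e-07). Vegfa, the angiogenic growth factor, was the other, with 0.37 and 0.42 (adjusted p = 0.0075 and 0.0024), and was named after its values were seen. Its calls were not followed through the alternatives. Tiamulin 2 had 175 CPM of Vegfa, against 140 and 142 in tiamulin 1 and 3. Among 10 regulators, the transcript of Hif1a itself was higher under both drugs (0.28 and 0.20, adjusted p = 0.0070 and 0.039), as was that of Ppargc1a, a coactivator of mitochondrial genes (0.53 and 0.45, adjusted p = 0.0049 and 0.011). Myc was higher under tiamulin (0.39, adjusted p = 0.016) and had 0.07 under lefamulin (adjusted p = 0.72). The Hif1a call under lefamulin was lost without lefamulin 2 (adjusted p = 0.053), and that under tiamulin held in 7 of 19 alternatives and, of the libraries left out in turn, only without tiamulin 2. The Myc call was lost without control 2 or 3 (adjusted p = 0.074 and 0.062), and its value was 0.24 without tiamulin 2. HIF-1 protein was not measured in these libraries.

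**Figure D5:**
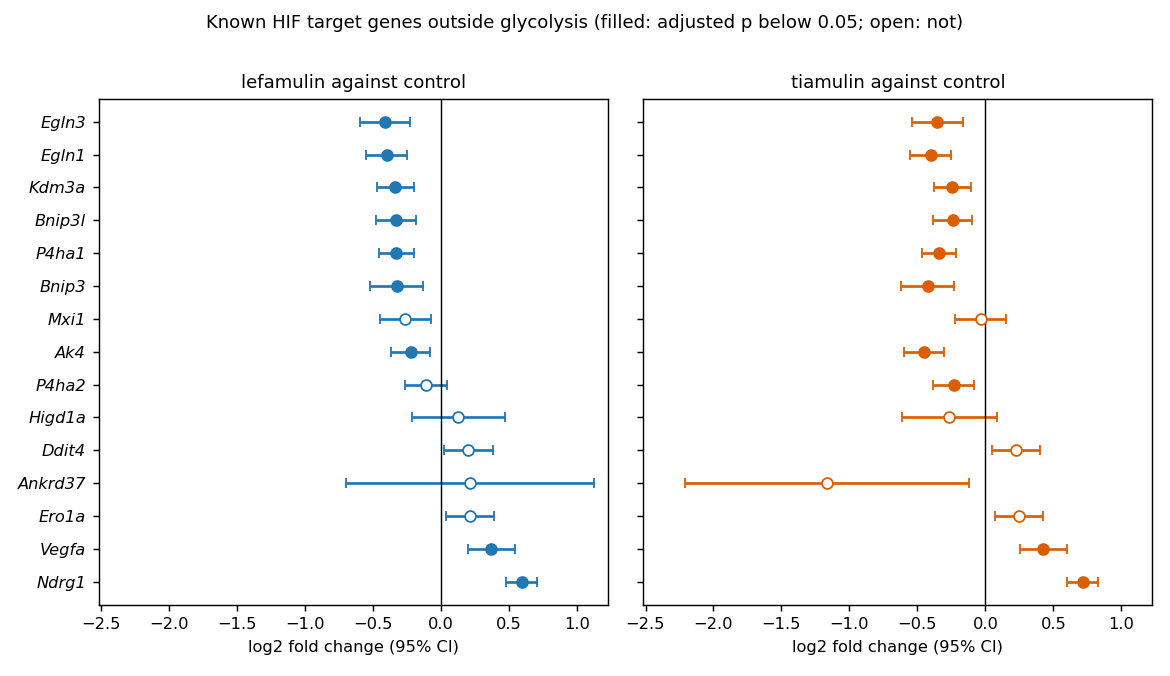
Fitted log2(fold change) with its 95% interval (x axis) of the 15 tested HIF target genes outside glycolysis (y axis), for lefamulin and tiamulin against control. Filled points passed an adjusted p below 0.05. The filled points below 0 lie between −0.45 and −0.22, and Ndrg1 and Vegfa lie above 0 under both drugs.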

How the data were processed

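RNA from Hepa1-6 cells was sequenced by Novogene, and the authors deposited 2 kinds of value per gene and library. The first are read counts, whole numbers without normalization. The second are FPKM values, which the authors made from the counts, and which are counts per gene length and library, with a library total 0.993 to 1.01 times the sum over the deposited counts. The submitters' processing notes list CASAVA 1.8, fastp, HISAT2 2.0.5, featureCounts 1.5.0-p3, DESeq2 1.20.0 and the build mm10. Whether counting used strand is not given in the sources used here. Only 1435 of 52036 nuclear genes, and 0 of the 11 member entries, matched GRCm38 (GENCODE) in start and end, so positions are given as deposited and were not joined to the RefSeq promoters of GRCm38.p6.

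Counts were normalized by TMM and tested by edgeR 4.0.16 in R 4.3.3 (filterByExpr, robust quasi-likelihood, 1 fit of 9 libraries with group as the only term), with Benjamini-Hochberg adjustment over 14510 entries. Levels in CPM are scaled to the TMM-normalized library total. The alternatives were DESeq2's size factors, DESeq2 1.42.0, other filters, the 2 groups compared alone, a replicate block, offsets for GC content and gene length (known for 14242 entries), limma 3.58.1 on log2(FPKM + 1) and log2(FPKM + 0.1), the authors' fold threshold and leaving out each library. The 19 alternatives counted for a gene leave out the fold threshold and include the offsets joined to a replicate block. On simulated counts for lefamulin against control, 14265 entries were tested. The fit recovered 15.2% of changes of 0.3 and 63.3% of changes of 0.7 on the log2 scale, and called 4 unchanged genes. For tiamulin these were 19.2%, 59.2% and 9. The simulation changed only 99 genes by 0.3 and 98 by 0.7, drawn at random, far fewer than were called in the data. Its recovery is therefore not the power of the fit for the members.

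The members and lists were chosen with earlier results of these data known. Named genes were the 10 members, at most 4 called genes per list with the smallest p, and the 5 with a pattern most like the members. Outside this rule, Vegfa and the genes ranked beside Gapdh by spread were named after their values were seen. Replicate numbers were not used to pair libraries in the main fit, and the labels do not say whether they mark pairs.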

Additional observations from a re-analysis of the deposited data

Results flagged for a closer look

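In the direct test of tiamulin against lefamulin, where 2.05% of all entries were lower and 2.85% higher, Hk2, Ldha, Slc16a1 and Pck2 passed among the named genes. Slc16a1 and Pck2 were named because they had passed against control, so their number is not read against these shares. Hk2 was lower under tiamulin than under lefamulin by a log2 difference of −0.34 and Ldha by −0.20. Slc16a1 was also lower under tiamulin, with −0.28 (95% interval −0.39 to −0.18, edgeR adjusted p = 0.0055), and lay on opposite sides of control in the drugs, below it in 3 of 3 tiamulin libraries and above it in 3 of 3 lefamulin libraries. Pck2 was higher under tiamulin, with 0.55 (95% interval 0.38 to 0.73, adjusted p = 0.0021). Its level was between 77.2 and 87.2 CPM in controls, 101 and 114 with lefamulin and 143 and 178 with tiamulin. Tiamulin 2 was the highest of the 3 for Pck2 and Hk2, and without it both differences still passed (−0.40 for Hk2 and 0.46 for Pck2).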

How the results depend on the processing

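Of 108 fold changes under 19 alternatives each (18 for the second Aldoa entry in the direct comparison), 43 values changed sign, and 0 of those were called in either fit. Among the members, Pfkl, Ldha, Eno1, Pkm and Slc2a1 kept a negative sign against control in all 19 alternatives with both drugs. Pfkl and Ldha passed in all 19, which do not include the authors' fold threshold. No member passed that threshold. Pkm with tiamulin passed in 18, missing with the offsets joined to a replicate block (adjusted p = 0.058). Eno1 passed in 17 with lefamulin and 16 with tiamulin, missing both times in the limma fits of log2(FPKM + 1) and log2(FPKM + 0.1), and with tiamulin also without control 1.

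Against the 4 members lower with lefamulin, 6 lower with tiamulin and 2 lower in the direct comparison, and 0 higher, the counts changed as follows. Fitting only the 2 groups compared gave 7 lower and 1 higher with lefamulin, 4 lower with tiamulin and 1 lower in the direct comparison. Offsets for GC content and gene length gave 6 lower and 1 higher (Hk2) with lefamulin and 1 higher in the direct comparison (Pgk1), and joined to a replicate block they gave 5 lower and 1 higher with lefamulin, 5 lower with tiamulin and 1 higher in the direct comparison. Both limma fits gave 3 lower with lefamulin, 3 lower with tiamulin and 1 in the direct comparison. The authors' fold threshold left 0, 0 and 0 lower. Leaving out each library gave 3 to 7 lower and 0 to 1 higher with lefamulin, 3 to 7 lower with tiamulin, and 0 to 2 lower and 0 to 1 higher in the direct comparison. The counts without tiamulin 2 were the highest. DESeq2's size factors, DESeq2 itself and the filters on low counts left the member counts within 1 of those above.

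Of all entries, 1900 passed with lefamulin, 2383 with tiamulin and 711 in the direct comparison. Fitting 2 groups alone gave 3510, 1685 and 280, the offsets 3434, 3893 and 1896, the offsets with a block 3136, 3624 and 1611, and the fold threshold 219, 259 and 33. In the direct comparison DESeq2 gave 1076, no filter 1271, and the limma fits 366 and 342. Leaving out a library gave 993 to 3708, 1462 to 3433 and 204 to 1309.

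Replicate numbers were shared between groups, but same-numbered libraries did not deviate together (correlations from −0.53 to 0.06), and 1 of 9 libraries correlated best with its own number. With the number as a block, 4, 5 and 1 members were lower and 1304, 1811 and 263 entries passed. The block ended the calls of Hk2 with tiamulin (adjusted p = 0.069) and of Ldha in the direct comparison (adjusted p = 0.10). Among the other named genes the block ended the calls of Adpgk, Bpgm, Slc16a1, H6pd, Gpd2, Ak4 and Ugp2 with lefamulin and of Dlat, Gpd2, Slc25a12, Hif1a and Pgm1 with tiamulin (adjusted p between 0.061 and 0.11).

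The values that changed sign were near 0 or belonged to Gapdh or the sparse second Aldoa entry. In the direct comparison the offsets gave −0.064 for Pfkl, −0.021 for Gapdh, −0.079 for Eno1, −0.0050 for Pdk1, −0.023 for H6pd and 0.018 for P4ha1, and with a block −0.065, −0.31, −0.079, −0.0037, −0.023 and 0.019. Gapdh was −0.31 in the block fit and −0.29 and −0.31 in the limma fits. Leaving out a library gave ranges there of −0.77 to 0.53 for Gapdh, −0.038 to 0.11 for Pfkl, −0.088 to 0.090 for Eno1, −0.0082 to 0.17 for Aldoa, −0.14 to 0.0057 for Slc2a1, −0.019 to 0.073 for Pdk1, −0.046 to 0.16 for H6pd, −0.058 to 0.016 for P4ha1, −0.047 to 0.025 for Egln1, −0.098 to 0.029 for Gfpt2, −0.11 to 0.018 for Got1, −0.19 to 0.0072 for Pgam1 and −0.076 to 0.14 for Slc25a12. Against control, Gapdh ranged from −0.84 to 0.11 with lefamulin and −1.15 to 0.17 with tiamulin, and Aldoa from −0.12 to 0.054 with tiamulin. The second Aldoa entry ranged from −0.49 to 0.056 with lefamulin and −0.32 to 0.12 in the direct comparison. The cause of these changes was not tested. With 3 libraries per group, genes that did not pass may still differ. In simulated counts most changes of 0.3 on the log2 scale were missed, but far fewer genes were changed there than were called here. The share recovered there does not give the power for the members.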
